A study of Mus musculus with 3 samples.

Results

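The genes described here make haemoglobin and its haem, and were chosen by name: the alpha globins Hba-a1 and Hba-a2, the beta globins Hbb-bs and Hbb-bt, the haem enzymes Alas2 and Fech, and the red cell genes Bpgm, Slc25a37 and Ermap. All 9 were found among the 54532 genes of the files. They were read in 3 RNA-seq libraries of cells that the labels give as CD45-CD31+PDPN+ from dura mater, the tough outer sheet of the meninges. The mice had received 4T1-DM cells, and 4T1 cells derive from a mammary tumour of the mouse. The ZOL+Ang2 library came from mice given ZOL and Ang2, the ZOL library from mice given ZOL, and the PBS library from mice given PBS, names that the labels leave unexpanded. Every mouse, PBS ones included, carried 4T1-DM cells. Dorsal dura was collected on day 12, 6 mice went into each pool, and the RNA was amplified as full-length complementary DNA before sequencing. The labels name neither age nor strain. Since each group is 1 library, no test was possible and nothing is known of how animals vary.

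Haemoglobin is a tetramer of alpha and beta globin chains, each holding a haem, and red cell precursors build it in large amounts before they shed their nuclei. Haem synthesis begins in mitochondria with aminolevulinate synthase, made from Alas1 in most tissues and from Alas2 in red cell precursors, and ends there when ferrochelatase (Fech) inserts iron that mitoferrin 1 (Slc25a37) has brought in. Reticulocytes, the newly shed cells, still hold globin messenger RNA. Red blood cells carry no nucleus and are not a cell type that the label names.

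The globin genes are pairs of close copies. Hba-a1 (ENSMUSG00000069919; chromosome 11, 32283511 to 32284465) and Hba-a2 (ENSMUSG00000069917; chromosome 11, 32296489 to 32297298) differ at 1 of 426 coding bases in the GRCm38 reference. Hbb-bs (ENSMUSG00000052305; chromosome 7, 103826534 to 103828096) and Hbb-bt (ENSMUSG00000073940; chromosome 7, 103812524 to 103813996) differ at 1 of 441. The 60 coding bases around each difference are shown, read from the GENCODE M21 transcripts and with the differing base in capitals, since that base is all the coding sequence has to tell the copies apart.
Hba-a1 (chr11:32284313-32284372, plus strand): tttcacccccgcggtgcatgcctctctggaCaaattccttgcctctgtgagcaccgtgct
Hba-a2 (chr11:32297130-32297189, plus strand): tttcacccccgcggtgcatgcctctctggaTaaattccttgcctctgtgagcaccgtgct
Hbb-bs (chr7:103826668-103826727, minus strand): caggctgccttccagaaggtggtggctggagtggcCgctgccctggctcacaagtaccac
Hbb-bt (chr7:103812659-103812718, minus strand): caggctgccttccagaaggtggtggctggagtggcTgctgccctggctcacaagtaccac
Outside the coding part the alpha copies stay alike and the beta copies diverge. Whole transcripts were 99.8% identical over 538 aligned bases for the alpha pair and 92.4% over 630 for the beta pair, and alpha and beta coding sequences were 61.6% identical. Of all stretches of 100 bases in a transcript, 56.5% in Hba-a1, 74.5% in Hba-a2, 62.6% in Hbb-bs and 54.8% in Hbb-bt also occurred in the partner, and none occurred in another gene. How the authors treated reads that match several places is not stated in the labels, so values of single copies are uncertain. Sums over a pair are firmer only if shared reads were given to one copy or the other. If shared reads were left out, the sums miss them too, and by unlike amounts for alpha and beta. The globin shares of reads and the alpha to beta ratios below rest on such sums.

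The RefSeq promoter table (GRCm38.p6) held 7 of the 9 genes. The table's 250 bases before the RefSeq start were searched on either strand for a GATA motif (A or T, then GATA, then A or G), for CCAAT and for a TATA motif (ATATAA or TATAAA, which can overlap). The GENCODE models printed above begin further upstream than RefSeq for some genes, so that 161 bases of the window lie in exons for Hba-a1, 85 for Hbb-bs, 42 for Alas2 and 3 for Hba-a2. The part of the window before the first GENCODE exon is shown for 1 alpha globin, 1 beta globin and Alas2. These are genes that differed most between ZOL+Ang2 and ZOL. Matches inside the printed part are in capitals, and matches past its end are not shown.
Hba-a2 (chr11:32296242-32296488, plus strand): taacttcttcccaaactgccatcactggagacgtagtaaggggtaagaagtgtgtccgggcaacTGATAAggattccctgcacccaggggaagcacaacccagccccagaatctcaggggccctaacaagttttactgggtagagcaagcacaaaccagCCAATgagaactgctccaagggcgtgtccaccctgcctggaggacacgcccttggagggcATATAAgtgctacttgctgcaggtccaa
Hbb-bs (chr7:103828097-103828178, minus strand): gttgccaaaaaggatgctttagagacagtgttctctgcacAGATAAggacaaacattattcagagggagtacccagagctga
Alas2 (chrX:150547167-150547374, plus strand): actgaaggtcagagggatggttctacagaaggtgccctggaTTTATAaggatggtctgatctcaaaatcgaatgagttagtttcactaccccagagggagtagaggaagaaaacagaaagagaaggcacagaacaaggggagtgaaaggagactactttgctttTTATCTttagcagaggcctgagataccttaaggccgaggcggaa
The Hba-a1 window matched that of Hba-a2 over 247 aligned bases with no difference and is not repeated. A GATA match began 183 bases before the RefSeq start of Hba-a1, 186 before that of Hba-a2, 210 before Hbb-bs, 86 before Alas2 and 67 before Ermap. Hbb-bt and Bpgm had none in these letters, which says only that the letters are not in this window. Hbb-bs also held a CCAAT match 76 bases and a TATA match 30 bases before its RefSeq start, both past the end of its printed part. The TATA match of Alas2 lay 209 bases before the start and on the other strand, and Alas2 had no CCAAT match. Across the table's 32851 windows of this length 26.5% held a GATA match, 33.8% a CCAAT match and 16.7% a TATA match. A further motif, CCNCNCCC, was found in Hbb-bs, Hbb-bt, Alas2 and Bpgm, against 45.9% of all windows. These matches describe sequence and not binding.

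Reads recovered from the deposited values came to 9204901 in ZOL+Ang2, 16586760 in ZOL and 1675532 in PBS, and PBS was the shallowest. Of genes at 100 CPM (reads relative to library size, scaled between libraries) or more in both other libraries, 1 of 638 was listed at 0 in ZOL+Ang2, 3 of 589 in ZOL and 88 of 1384 in PBS, so no fold is given against a 0 in PBS. The markers of the label were uneven. Pecam1 (CD31) stood at 177 CPM in ZOL+Ang2, 475 in ZOL and 1.08 in PBS, and Pdpn at 171, 67.5 and 18.8 CPM in the same libraries. Ptprc (CD45) stood at 76.1, 25.1 and 156 CPM. Of the lymphatic markers, Flt4 stood at 23.8 CPM in ZOL+Ang2, 70.9 in ZOL and 0.538 in PBS. Lyve1 was listed at 0 in every library and Prox1 in ZOL+Ang2 and ZOL, with 2 reads in PBS.

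Globin RNA was abundant in the ZOL+Ang2 library and scarce in the other libraries. The 4 globin genes took 217904 reads, or 2.37% of the library (exact 95% interval 2.36 to 2.38), in ZOL+Ang2. They took 87 reads, 0.000525% (0.000420 to 0.000647), in ZOL and 334 reads, 0.0199% (0.0179 to 0.0222), in PBS. Intervals here and below cover counting error only, because amplified reads without molecular identifiers are not independent molecules. In a bulk pool a larger number of cells of a type and more RNA per cell cannot be told apart.

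Hba-a1 stood at 12334 CPM in ZOL+Ang2, 2.04 in ZOL and 137 in PBS. ZOL+Ang2 was 6051-fold higher than ZOL (95% counting interval 4286 to 8847) and 89.9-fold higher than PBS (79.5 to 102). Hbb-bs stood at 10201 CPM in ZOL+Ang2, 1.85 in ZOL and 25.8 in PBS, 5522-fold higher than ZOL (3845 to 8246) and 395-fold higher than PBS (298 to 536). For Hba-a1 and Hbb-bs, folds against PBS depended on scaling by more than their counting intervals. For ZOL+Ang2 over PBS the deposited RPKM gave 40.5-fold for Hba-a1 and 178-fold for Hbb-bs, and median-of-ratios scaling gave 56.3-fold and 247-fold. Every other fold of ZOL+Ang2 over PBS shifts by the same factor. By the deposited RPKM, a level per length, they were the genes at places 3 and 4 of 15715 with a value above 0 in ZOL+Ang2. In ZOL they were at places 9862 and 10013 of 18597, and in PBS at 217 and 1951 of 16147.

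The minor copies followed the same order of libraries. Hba-a2 stood at 1209 CPM in ZOL+Ang2, 1.02 in ZOL and 13.5 in PBS. Hbb-bt stood at 1103 CPM in ZOL+Ang2, 0.637 in ZOL and 3.23 in PBS. ZOL+Ang2 was 1187-fold (730.4 to 2077) and 1732-fold (941 to 3613) higher than ZOL for Hba-a2 and Hbb-bt. On the log2 scale a prior of 5 CPM was added, which understates such differences. The 4 globins held places 1 to 4 from the top of 10942 genes in ZOL+Ang2 against ZOL. Their log2 folds were 10.78 (Hba-a1), 10.54 (Hbb-bs), 7.66 (Hba-a2) and 7.62 (Hbb-bt). Hba-a2 and Hbb-bt passed the filter for this ranking only through ZOL+Ang2, so their high places are fixed in part by the filter.

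**Figure D1:**
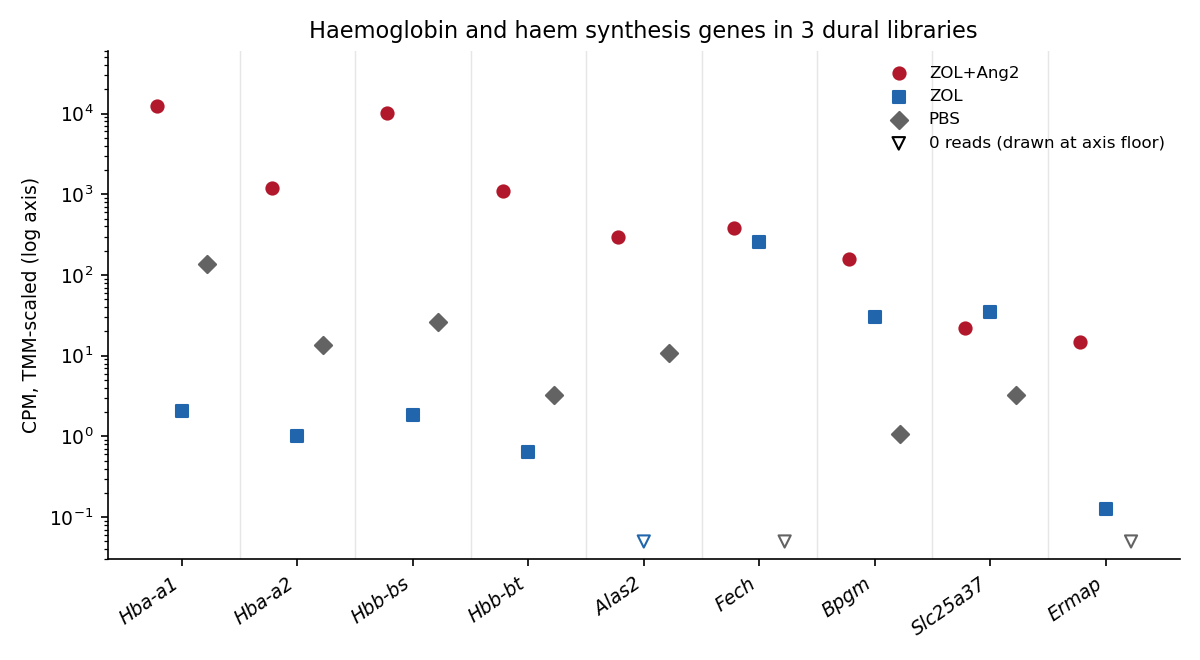
CPM of the 9 genes on a log axis, with 1 point per library and group and open triangles for libraries with 0 reads. The 4 globins and Alas2 stand highest in ZOL+Ang2 and lowest in ZOL, while Fech and Slc25a37 lie close together in ZOL+Ang2 and ZOL.

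The globin reads were split between copies in nearly the same way in ZOL+Ang2 and PBS. Hba-a1 took 91.1% of alpha globin reads in ZOL+Ang2 (exact interval 90.9 to 91.2), 66.7% in ZOL (51.6 to 79.6, from 48 reads) and 91.1% in PBS (87.1 to 94.1). Hbb-bs took 90.2% of beta globin reads in ZOL+Ang2 (90.1 to 90.4), 74.4% in ZOL (57.9 to 87.0, from 39 reads) and 88.9% in PBS (77.4 to 95.8). The ZOL shares were the lowest of the 3 libraries in each pair, on few reads, and the interval of Hba-a1 in ZOL lay below those of both other libraries. The interval of Hbb-bs in ZOL lay below that of ZOL+Ang2 and overlapped that of PBS.

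The balance of alpha and beta reads differed between libraries in another way. Alpha globin reads outnumbered beta globin reads 1.20 to 1 in ZOL+Ang2 (1.19 to 1.21), 1.23 to 1 in ZOL (0.790 to 1.93) and 5.19 to 1 in PBS (3.86 to 7.07). Per length, as summed RPKM, the ratio was 1.14 in ZOL+Ang2, 1.22 in ZOL and 4.95 in PBS. ZOL+Ang2 and ZOL could not be told apart by counting error, and PBS held more alpha for its beta than either. The embryonic beta-like genes were listed at 0 in ZOL+Ang2: Hbb-y had 2 reads and Hbb-bh1 7 reads in PBS, and Hbb-bh2 had 8 reads in ZOL. Hba-x, the embryonic alpha-like gene, was listed at 0 in every library.

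**Figure D2:**
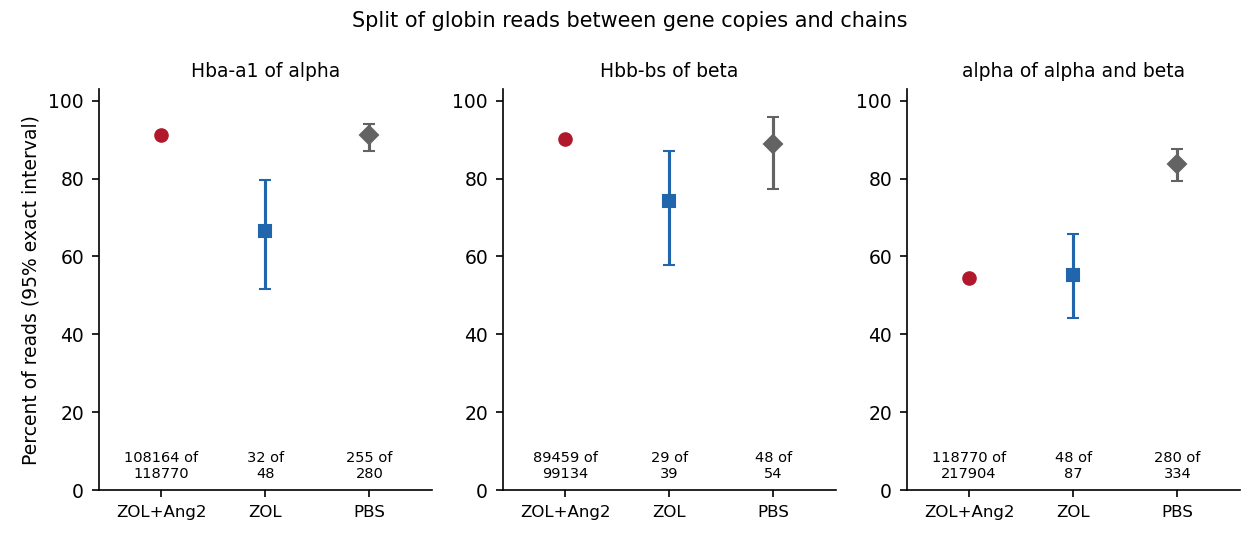
Percent of globin reads taken by Hba-a1 among alpha copies, by Hbb-bs among beta copies, and by alpha among all 4 genes, with exact 95% binomial intervals and read numbers under each point. The copy shares are near 90% in ZOL+Ang2 and PBS, and the alpha share is 54.5% in ZOL+Ang2, 55.2% in ZOL and 83.8% in PBS.

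Of the haem enzymes, the synthases of the first step stood in opposite order in ZOL+Ang2 and ZOL. Alas2 (ENSMUSG00000025270; chromosome X, 150547375 to 150570638), the red cell form, stood at 296 CPM in ZOL+Ang2, was listed at 0 in ZOL and stood at 10.8 CPM in PBS (20 reads). Against a floor of 3 reads in ZOL it was at least 1548-fold higher in ZOL+Ang2, and it was 27.5-fold higher than in PBS (17.8 to 45.1). Alas1, the form of most tissues, was listed at 0 in ZOL+Ang2, stood at 118 CPM in ZOL and had 2 reads in PBS, so it was at least 345-fold lower in ZOL+Ang2 than in ZOL. Alas2 held all of 2595 Alas reads in ZOL+Ang2, none of 1853 in ZOL and 20 of 22 in PBS. Of 2099 genes at 100 CPM or more in ZOL, 33 (1.57%) were listed at 0 in ZOL+Ang2, Alas1 among them, and of 2027 such genes in ZOL+Ang2, 13 (0.641%) were listed at 0 in ZOL, Alas2 among them. Apex2 and Mir3620 overlap Alas2 on the other strand, and the labels do not say whether counting used strand. They summed to 150 reads in ZOL+Ang2, 407 in ZOL and 0 in PBS.

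The later enzymes did not share that order. Cpox, coproporphyrinogen oxidase, stood at 61.0 CPM in ZOL+Ang2 and 1.27 in ZOL, 47.9-fold higher (30.7 to 79.0), and was listed at 0 in PBS. Alad, the enzyme of the second step, went the other way, at 59.5 CPM in ZOL+Ang2, 208 in ZOL and 69.4 in PBS (3.50-fold lower in ZOL+Ang2 than in ZOL, 3.19 to 3.85). Fech (ENSMUSG00000024588; chromosome 18, 64452914 to 64490251), the last enzyme, stood at 380 CPM in ZOL+Ang2 and 255 in ZOL, 1.49-fold higher (1.42 to 1.56), and was listed at 0 in PBS. The recovered Fech reads were not whole numbers (3329.5 and 4002.1), so the exon length used for it may not be that of the authors, which leaves its ratio between libraries untouched.

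Uros stood at 14.1 CPM in ZOL+Ang2 and 15.5 in ZOL. Urod stood at 141 CPM in ZOL+Ang2 and 84.7 in ZOL, and Ppox at 30.7 and 64.2. These 3 enzymes of the middle and late steps stood closer in both libraries than Alas1, Alas2 and Cpox did. Of the 9 enzyme genes listed, 8 passed the filter of a mean of 10 CPM over the 3 libraries, and Uros did not. On the scale with the prior, in ZOL+Ang2 against ZOL, 2 of the 8 were at least 2-fold higher (Alas2 and Cpox), 2 were lower (Alas1 and Alad) and 4 lay between, with a median log2 fold of 0.31 against -0.02 over all genes tested. Of all genes tested 16.2% were higher and 24.8% lower in that comparison. Alas2 and Cpox passed the filter only through ZOL+Ang2, so the 2 higher genes are fixed in part by the filter.

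**Figure D3:**
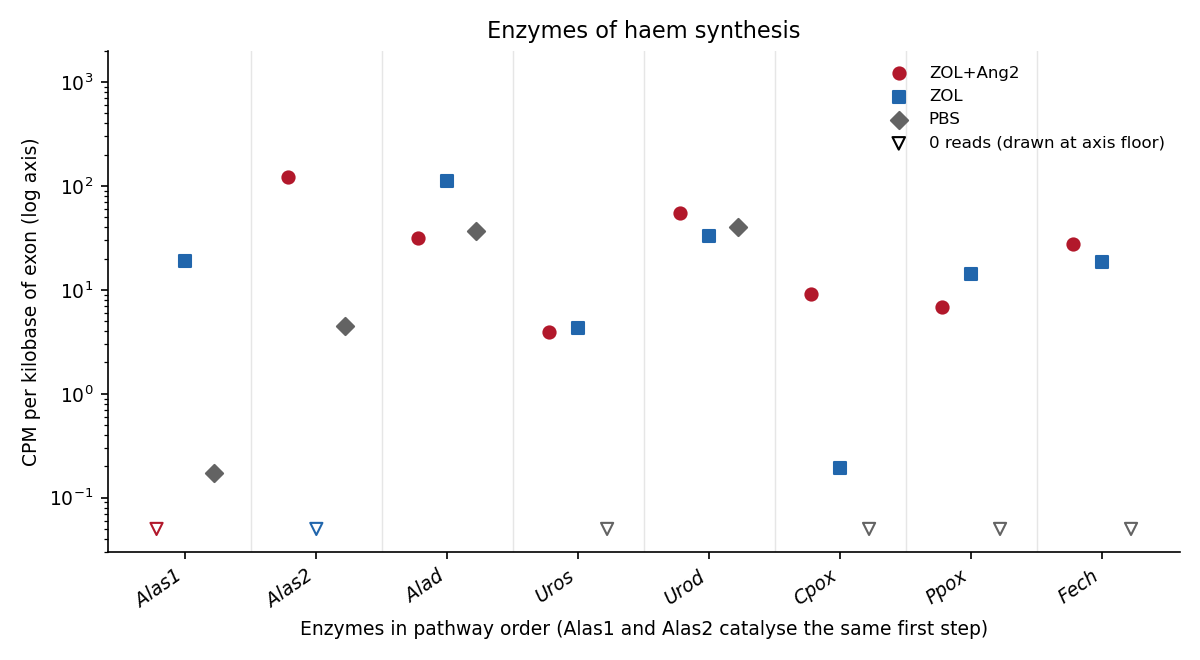
CPM per kilobase of exon (log axis) for enzymes of haem synthesis in pathway order, with 1 point per library and open triangles for 0 reads. Alas2 and Cpox stand higher and Alas1 and Alad lower in ZOL+Ang2 than in ZOL, and the other enzymes shown lie closer together.

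Per length, Alas2 was the most abundant enzyme in ZOL+Ang2, at 123 CPM per kilobase, and Alad in ZOL, at 111 CPM per kilobase. Hba-a1 and Hbb-bs stood at 15190 and 13283 CPM per kilobase in ZOL+Ang2. In PBS the highest enzyme level per length was that of Urod, at 40.3 CPM per kilobase, with Alad at 37.1, and 4 of the 9 enzymes were listed at 0.

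Among the other red cell genes, Bpgm (ENSMUSG00000038871; chromosome 6, 34476207 to 34505613) makes the bisphosphoglycerate that lowers the oxygen affinity of haemoglobin. It stood at 160 CPM in ZOL+Ang2, 30.5 in ZOL and 1.08 in PBS (2 reads), and was 5.24-fold higher in ZOL+Ang2 than in ZOL (4.72 to 5.82). Ermap (ENSMUSG00000028644; chromosome 4, 119175457 to 119190011), a red cell membrane protein, had 128 reads (14.6 CPM) in ZOL+Ang2, 2 in ZOL and 0 in PBS, 115-fold higher than ZOL (31.1 to 956).

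Slc25a37 (ENSMUSG00000034248; chromosome 14, 69241848 to 69285112) departed from this order. It stood at 22.0 CPM in ZOL+Ang2, 34.4 in ZOL and 3.23 in PBS, 1.56-fold lower in ZOL+Ang2 than in ZOL (1.32 to 1.85). Its relative Slc25a28 (mitoferrin 2), which serves other tissues, was listed at 0 in ZOL+Ang2 and PBS and stood at 31.1 CPM in ZOL. The 4 gene models that overlap Slc25a37 were listed at 0 in every library.

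By the filter, 8 of the 9 genes were compared, and Ermap was not. Without the ZOL+Ang2 library 5 would pass on the mean of ZOL and PBS (Hba-a1, Hbb-bs, Fech, Bpgm and Slc25a37), so Hba-a2, Hbb-bt and Alas2 entered through the library in which they were high and could hardly have been lower there. In ZOL+Ang2 against ZOL 6 of 8 were at least 2-fold higher, where 16.2% of all genes tested were, none was lower (24.8% of all), and Fech and Slc25a37 lay within 2-fold. In ZOL+Ang2 against PBS all 8 were higher, against 44.2% of all genes tested (33.1% lower). Fech is counted among the 8 though it was listed at 0 in PBS. With the deposited RPKM Slc25a37 lay inside 2-fold, at a log2 fold of 0.93, and 7 of 8 were higher. Bpgm was 148-fold higher there (41.0 to 1227, from 2 PBS reads) and Slc25a37 6.82-fold higher (3.07 to 18.8, from 6 PBS reads; 3.07-fold by the deposited RPKM).

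In ZOL against PBS the genes divided. Hba-a1 was 67.3-fold lower in ZOL (46.5 to 101), Hba-a2 13.2-fold lower (6.77 to 26.5), Hbb-bs 14.0-fold lower (8.64 to 23.0) and Hbb-bt 5.07-fold lower (1.51 to 15.4, from 10 ZOL and 6 PBS reads). Alas2 was at least 56.3-fold lower. Bpgm was 28.3-fold higher (7.81 to 235) and Slc25a37 10.7-fold higher (4.86 to 29.2), and Fech was listed at 0 in PBS. With the prior of 5 CPM, 3 of 8 were at least 2-fold higher (Fech, Bpgm and Slc25a37), 4 were lower and Hbb-bt lay between, where 49.2% of all genes tested were higher and 29.4% lower. With the deposited RPKM Hba-a1 was 168-fold lower and Slc25a37 4.26-fold higher in ZOL than in PBS. Hbb-bt then passed 2-fold, so that 5 were lower. Scaling also moved the background. Of all genes past 2-fold, 57.1% were higher for ZOL+Ang2 over PBS with TMM scaling and 46.0% with median-of-ratios scaling. For ZOL over PBS the shares were 62.6% and 47.3%. The median log2 fold of all genes tested was 0.48 and 0.04 for ZOL+Ang2 over PBS, and 0.94 and 0.24 for ZOL over PBS.

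Lists of related genes gave counts in both directions in ZOL+Ang2 against ZOL, where 16.2% of all genes tested were at least 2-fold higher and 24.8% lower. Of 14 genes that serve mitochondrial haem transport and iron-sulphur clusters 11 were compared, with 2 higher and 5 lower. Isca1, which helps assemble iron-sulphur clusters, was 5.31-fold higher (4.48 to 6.32), having passed the filter only through ZOL+Ang2, and Tmem14c, which moves haem precursors into the mitochondrial matrix, stood at 173 CPM in ZOL+Ang2 and 78.4 in ZOL. Slc25a28 was at least 90.9-fold lower in ZOL+Ang2 than in ZOL. Slc25a39, a mitochondrial carrier, stood at 208 CPM in ZOL+Ang2, 123 in ZOL and 45.7 in PBS.

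Of 8 haem export and breakdown genes 7 were compared, with 3 higher and 1 lower. Blvrb, a biliverdin reductase abundant in red cells, stood at 88.0 CPM in ZOL+Ang2 and 21.7 in ZOL (4.06-fold higher, 3.57 to 4.63). Hmox1, the inducible haem oxygenase, was 2.30-fold higher (2.08 to 2.54), and the haem exporter Flvcr1 2.99-fold higher (2.42 to 3.70). Slc48a1, which moves haem out of lysosomes, was 3.47-fold lower (3.06 to 3.96). The porphyrin exporter Abcg2 stood at 244 CPM in ZOL+Ang2 and 239 in ZOL.

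Structural genes of the red cell membrane were mostly scarce. Of 18 listed, 5 passed the filter, with Epb41 (protein 4.1) 8.62-fold higher (7.03 to 10.6) and the water channel Aqp1 3.83-fold higher (3.40 to 4.31) in ZOL+Ang2 than in ZOL. Add2, an adducin, was listed at 0 in ZOL+Ang2 and stood at 8.41 CPM in ZOL and 130 in PBS. Below the filter, the anion exchanger Slc4a1 had 137 reads in ZOL+Ang2 and 0 in ZOL and PBS. Epb42 and Ank1, further parts of the red cell skeleton, were listed at 0 in ZOL+Ang2, as were 11 of the 18 genes in all.

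Factors and receptors of early red cell precursors differed among themselves. Zfpm1, a cofactor of Gata1, had 133 reads (15.2 CPM) in ZOL+Ang2, 15 in ZOL and 0 in PBS, 15.9-fold higher in ZOL+Ang2 than in ZOL (9.28 to 29.2), and was under the filter. Gata1, Klf1, Tal1, Gfi1b and Lmo2 were listed at 0 there, as was the erythropoietin receptor Epor. In ZOL, Gata1 stood at 3.25 CPM, Klf1 at 4.27 and Tal1 at 26.2. Of the 3 genes compared, the transferrin receptor Tfrc was 111-fold lower in ZOL+Ang2 than in ZOL (53.9 to 277) and Kit 43.8-fold lower (14.8 to 214, from 3 ZOL+Ang2 reads), while Ldb1 lay within 2-fold. Of 18 genes tied to reticulocyte maturation 12 were compared, with 2 higher and 4 lower. Ube2o, which marks proteins for removal in reticulocytes, was 4.22-fold higher (3.71 to 4.81) and Trim11 3.70-fold higher (3.17 to 4.33), while Rnf123 was 108-fold lower (49.6 to 296) and Fam210b 4.63-fold lower (3.97 to 5.42). Bnip3l, needed to clear mitochondria from reticulocytes, stood at 250 CPM in ZOL+Ang2 and 138 in ZOL, and the survival gene Bcl2l1 at 350 and 223. Below the filter, Tent5c had 257 reads in ZOL+Ang2 and 0 in ZOL and PBS.

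Of 13 genes of glycolysis and redox defence 11 were compared in ZOL+Ang2 against ZOL, with Bpgm higher, Hk1 and G6pdx lower (2.38-fold, 2.12 to 2.68, and 6.99-fold, 5.83 to 8.45), and 8 within 2-fold. Against PBS 10 of the 11 were higher in ZOL+Ang2, where 44.2% of all genes tested were, and 10 in ZOL, where 49.2% were. Of these, Hk1, G6pdx and Car2 were listed at 0 in PBS. With median-of-ratios scaling 9 were higher in each comparison. Pkm stood at 2367 CPM in ZOL+Ang2, 2305 in ZOL and 411 in PBS, and Sod1 at 884, 1127 and 736 CPM. Car1, a carbonic anhydrase of red cells, was listed at 0 in ZOL+Ang2 and ZOL and had 25 reads in PBS. The haemoglobin scavenger haptoglobin (Hp) had 17 reads in ZOL+Ang2 and 0 in ZOL, and stood at 146 CPM in PBS, and the haemopexin gene Hpx was listed at 0 in every library.

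**Figure D4:**
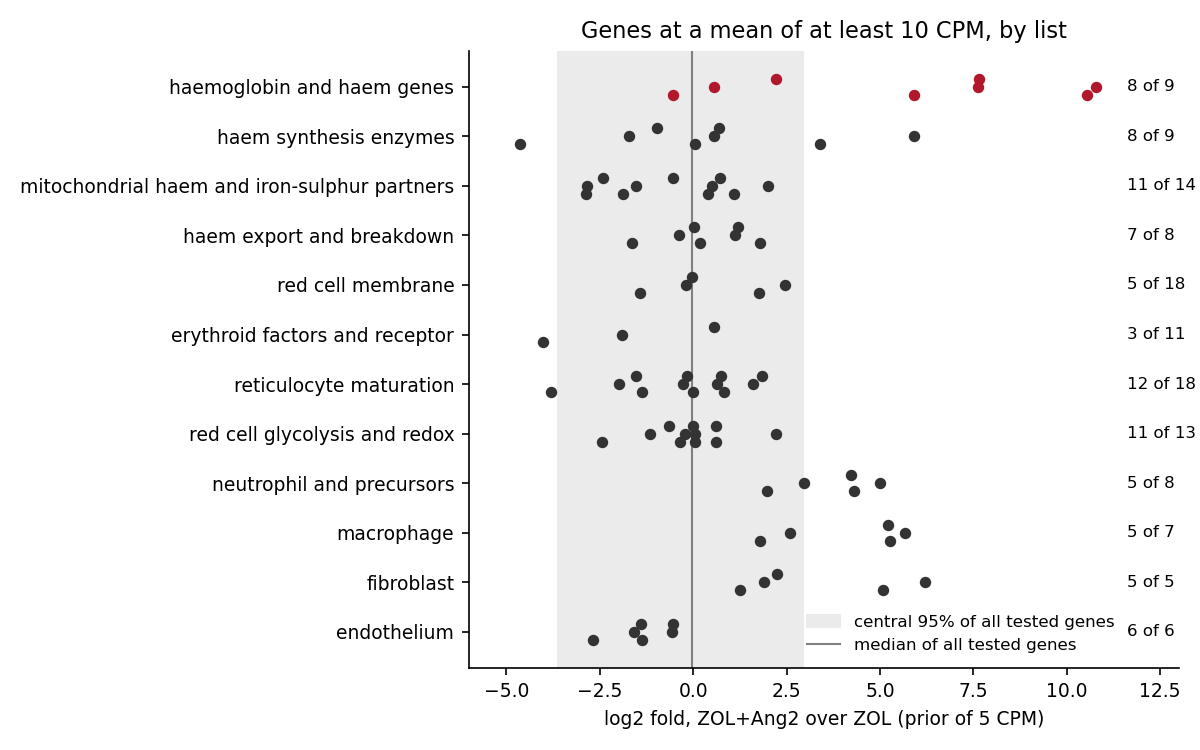
Log2 fold of ZOL+Ang2 over ZOL for the genes of each list that pass the filter, with the number passing of those in the files at the right, the median of all genes tested as a line and their central 95% as a grey band. The 4 globins lie between 7.62 and 10.78 and Alas2 at 5.91, and most genes of the other red cell lists lie inside the band.

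RNA of some other cell types was also higher in ZOL+Ang2 than in ZOL, and its part in the result was not tested. Of all genes tested, 16.2% were at least 2-fold higher in ZOL+Ang2 than in ZOL and 24.8% lower. Of 8 neutrophil genes 5 were compared and were higher in ZOL+Ang2 than in ZOL. The neutrophil list summed to 742 CPM in ZOL+Ang2, 40.6 in ZOL and 363 in PBS. Camp and Ngp, granule genes of maturing neutrophils, stood at 156 and 87.8 CPM in ZOL+Ang2 and were listed at 0 in ZOL. They passed the filter only through ZOL+Ang2, as C1qb did among macrophage genes and Pdgfra among fibroblast genes, so these counts are fixed in part by the filter. Retnlg, also on the neutrophil list and listed at 0 in ZOL, was highest in PBS, at 184 CPM against 14.7 in ZOL+Ang2. Ltf, a granule gene under the filter, stood at 10.1 CPM in ZOL+Ang2, 9.94 in ZOL and 0 in PBS. Mpo and Elane, genes of early precursors, were listed at 0 in ZOL+Ang2. The macrophage list (7 genes, 5 compared, all higher) summed to 814, 13.1 and 234 CPM in ZOL+Ang2, ZOL and PBS, with Cd68 listed at 0 in each. The fibroblast list (5 genes, all higher) summed to 8245, 365 and 253 CPM. The endothelial list (6 genes, 4 lower and none higher) summed to 550 CPM in ZOL+Ang2, 1294 in ZOL and 793 in PBS. In ZOL+Ang2 against PBS, 44.2% of all genes tested were higher and 33.1% lower. There 4 of 5 neutrophil genes were higher and 1 lower, though with median-of-ratios scaling 2 were higher. Of 5 macrophage genes 2 were higher and 3 within 2-fold. All 5 fibroblast genes were higher, and of 6 endothelial genes 2 were higher and 3 lower. Among the genes counted as higher than in PBS, Ngp, C1qb, Lum and Pdgfra were listed at 0 in PBS. Of the platelet list, Ppbp, Gp9 and Gp1bb were listed at 0 in every library, Itga2b had 2 reads in PBS and Pf4 stood at 21.2, 2.42 and 30.7 CPM. Lymphocyte genes summed to 0 CPM in ZOL+Ang2, 0.828 in ZOL and 287 in PBS, where Cd79a alone stood at 232 CPM.

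The genes most like the globins over the 3 libraries included several of collagen. Likeness was the distance between log2 profiles centred on their own mean, among 3755 named genes with at least 50 CPM in ZOL+Ang2, and 3 points leave it loose. Nearest were Col6a2 (779 CPM in ZOL+Ang2, 0.828 in ZOL and 7.53 in PBS), Col1a1, the protease gene Mmp2, Alas2, Mmp13, Sfrp4, the complement gene C1qb, Aebp1, Camp and Col1a2. Alas2 was at place 4, Bpgm at 282 and Fech at 2646. Slc25a37 and Ermap stood under 50 CPM in ZOL+Ang2 and were not placed. The threshold was set in the library where the globins were high, so the genes found near them are fixed in part by it.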

How the data were processed

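RNA was sequenced from 3 pools of dural cells, 1 per group, grouped by their treatment label. The authors deposited RPKM values per gene, and no label states which library total they divided by. The tools HISAT2 2.2.1, featureCounts 2.0.6 and fastp and the build mm10 are named, per the submitters' processing notes, without role or order. Reads were recovered as RPKM times the exon length in GENCODE M21 (GRCm38, the same build), divided by the step that made 96.2%, 96.4% and 96.8% of the values above 0 in ZOL+Ang2, ZOL and PBS whole within 0.01. They came to 0.785, 0.701 and 1.50 times the totals the steps imply, so they may not be the authors' counts. The 37 genes without an exon length were left out.

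CPM were then computed with TMM factors (0.953, 0.946 and 1.11; trims of 30% and 5%, computed from the formula). The 10942 genes averaging 10 CPM or more were compared as log2 ratios of CPM plus a prior of 5 CPM and counted past 2-fold. Folds of named genes are ratios of CPM without a prior, with exact 95% binomial intervals conditional on both libraries' reads, or bounds against a floor of 3 reads (0.342, 0.191 and 1.61 CPM in ZOL+Ang2, ZOL and PBS). The design had been written for such recovered reads. There are no tests or p-values. The steps were tested on simulated reads. Named genes were all 9 chosen genes, from each list the 2 most abundant and the 2 furthest apart in ZOL+Ang2 against ZOL, and the 10 nearest to the globins. Some listed genes count towards their lists but are not reported here by name. Other cell types are given as sums with examples, and other examples were picked once values were known. The genes and lists were chosen with earlier results of these data known. Python 3.11.15, numpy 2.4.6, scipy 1.17.1 and Biopython 1.88 were used.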

Additional observations from a re-analysis of the deposited data

How the results depend on the processing

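No paired analysis was possible because each group is 1 library. The counts of the 9 genes past 2-fold stayed within 1.5 times in every alternative run: 6 or 7 in ZOL+Ang2 against ZOL, 7 to 9 in ZOL+Ang2 against PBS and 5 to 8 in ZOL against PBS. By the deposited RPKM, folds against PBS were smaller for ZOL+Ang2 (Hba-a1 40.5 in place of 89.9) and further towards lower for ZOL (Hba-a1 168-fold lower in place of 67.3). The alternatives were other scaling, the deposited RPKM, filters of 1 and 50 CPM or none, a prior of 1 CPM, 4-fold, and thinning to 1675532 reads. No log2 fold of a gene past 2-fold changed sign. Of the log2 folds 37 moved and 98 did not, judged by the counting interval where there was one. Alas2 against ZOL and Fech and Ermap against PBS have no such interval, because a library had 0 reads. Of the list counts 47 moved by over 1.5 times and 106 did not. Without satellite-type, mitochondrial and ribosomal RNA genes the globin share was 2.71% in ZOL+Ang2 and 0.0302% in PBS. The alpha to beta ratio in ZOL+Ang2 was 1.14 per length. Only 334 PBS and 87 ZOL globin reads limit the splits between copies there.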

Other observations

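Other globin genes were scarce. Myoglobin (Mb), the oxygen store of muscle, had 107 reads (12.2 CPM) in ZOL+Ang2, 29 (1.85 CPM) in ZOL and 0 in PBS. Cytoglobin (Cygb), a globin of fibroblasts, was listed at 0 in ZOL+Ang2 and PBS and stood at 5.22 CPM in ZOL. Neuroglobin (Ngb) was listed at 0 in every library, as were the theta-like genes Hbq1a and Hbq1b.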
